A study of Mus musculus with 12 samples.

Results

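Pericentromeric H3K9me3 regions are listed regions near the centromere-side end of mouse chromosomes. They were taken as every row that the authors' deposited H3K9me3 table annotates as pericentromere on chromosomes 1 to 19, which gave 321 of 50654 listed regions, or 321 of the 47949 on these chromosomes. They lay on 17 of the 19 autosomes, all between positions 2999501 and 3559000 (mm10), and covered 607.5 kb. The labels do not say how the class was defined, and 271 autosomal regions of other classes also started below 3600000. Chromosomes 9 and 14 had none, and 5 pericentromeric regions on X were left out by the rule. The labels describe neurosphere cultures grown from the ganglionic eminence of C57BL/6 embryos at age E15.5, called neural progenitor cells. One group carries the genotype label Nestin-KO, a knockout (KO) of the histone methyltransferase Setdb1 by the study's title, and the other is wild type (WT). Each H3K9me3 group held 3 animals, as did each H3K27ac group. The labels do not say how Setdb1 was deleted or in what share of cells, and with no expression data the deletion itself was not checked here. For H3K9me3 the KO animals were 3 males and the WT animals 2 females and 1 male.

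H3K9me3, trimethylation of lysine 9 on histone H3, marks silent chromatin. At mouse pericentromeres, which consist largely of tandem satellite repeats, most of this mark is known to be placed by SUV39H1 and SUV39H2, and HP1 proteins bind to it. SETDB1 is best known for placing the mark on endogenous retroviruses and other repeats, together with TRIM28 and zinc finger proteins. Most satellite sequence is missing from the mouse reference, so the listed regions are the assembled edge of the pericentromere and not the satellite arrays as a whole.

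The authors' table pairs no gene with any of the 321 regions. Against RefSeq (GRCm38.p6), 31 of them overlapped 25 annotated genes, of which 18 were pseudogenes, 6 long non-coding RNAs, 1 a small nucleolar RNA and 0 protein-coding. In a set of 32851 RefSeq promoters, 250 bases before to 50 after a gene start, 2 overlapped the regions. The set does not hold every gene start. The small nucleolar RNA gene Gm22598 (chr16:3535485-3535611), for one, lay wholly inside a region and is not among the 2. The 2 promoters are shown as the sequence at hand from inside pericentromeric regions. Both are on the plus strand, and the capitals mark the bases that lie inside the H3K9me3 region. The first is the promoter of LOC115490388 (chr6:3182866-3183165), with 35 bases in a region that the authors' deposited table lists at a log2 ratio of KO to WT of 0.42, and the second that of Gm35974 (chr16:3468210-3468509), with 191 bases in a region listed at 0.56. Both genes are long non-coding RNAs.
LOC115490388: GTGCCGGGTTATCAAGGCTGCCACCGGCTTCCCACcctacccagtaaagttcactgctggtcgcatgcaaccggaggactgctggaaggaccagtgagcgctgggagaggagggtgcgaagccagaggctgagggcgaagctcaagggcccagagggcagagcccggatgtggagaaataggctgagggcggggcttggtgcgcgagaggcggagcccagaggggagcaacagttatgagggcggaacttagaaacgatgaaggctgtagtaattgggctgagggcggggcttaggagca
Gm35974: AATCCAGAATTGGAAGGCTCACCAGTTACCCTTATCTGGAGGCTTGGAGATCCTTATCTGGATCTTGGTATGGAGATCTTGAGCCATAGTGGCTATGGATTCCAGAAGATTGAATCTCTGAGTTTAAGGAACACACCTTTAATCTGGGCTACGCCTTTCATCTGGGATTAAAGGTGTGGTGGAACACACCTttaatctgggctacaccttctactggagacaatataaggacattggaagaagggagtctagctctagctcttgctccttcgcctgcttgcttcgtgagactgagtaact
The promoter of LOC115490388 held 15 CG dinucleotides at a GC content of 62%, and that of Gm35974 held 3 at 45.7%. The median over the 32851 RefSeq promoters was 7 CG dinucleotides and 52.7% GC, and 67% and 31.4% of promoters held no more of them than these did. The body of LOC115490388 itself (chr6:3183116-3198511) carried 4 of the regions, 2 listed as lower and 2 as higher in KO.

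Depth differed between the listed positions. The 6 libraries held 11.01 to 36.4 M reads in listed regions, and a pericentromeric region had a median of 27, 146 and 79 reads over the KO values in their listed order and of 28, 71 and 73 over those of WT. The first listed value of both genotypes stood apart from the others at many of the strong pericentromeric regions. In the H3K9me3 titles 1 KO and 1 WT animal share a number and the others do not share one across genotypes. Which animal each listed value belongs to is not stated, so neither title number nor sex could be set against the values.

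The regions were short, with median levels near those of all listed regions in WT and above them in KO. Their length ran from 1000 to 14900 bp with a median of 1400 bp, and 247 were at most 2 kb long. The median WT mean was 54.9 normalised reads per region, against 53.4 over all listed regions, and the median KO mean was 65.6, against 35.8. The authors' enrichment in WT, a ratio whose background the labels do not describe, had a median of 1.32 at pericentromeric regions and 1.47 over all listed regions. In KO the order was the other way round, with 1.83 and 1.00. The KO enrichment exceeded the WT enrichment at 62.6% of the pericentromeric regions and at 29.3% of the other autosomal regions.

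More pericentromeric regions were listed as higher than as lower in KO. In the authors' deposited table, 196 were higher (61.1%) and 125 lower (38.9%) at an adjusted p of 0.05 or less, while over all listed regions 28.9% were called higher and 71.1% lower. Their median log2 fold change (KO over WT) was 0.54, against -0.94 over all listed regions, and the single values ran from -1.73 to 1.86. Subtelomeric regions, at the opposite chromosome end, had 25 higher and 165 lower with a median of -1.10, and gene deserts had 2947 higher and 4899 lower with a median of -0.75. These are counts of neighbouring regions from the same 6 libraries, so they carry no test of the class itself. The 2 background shares add up to nearly every listed region, so the table holds regions already chosen for a difference, and a share of it is no rate of change over the pericentromere.

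**Figure D1:**
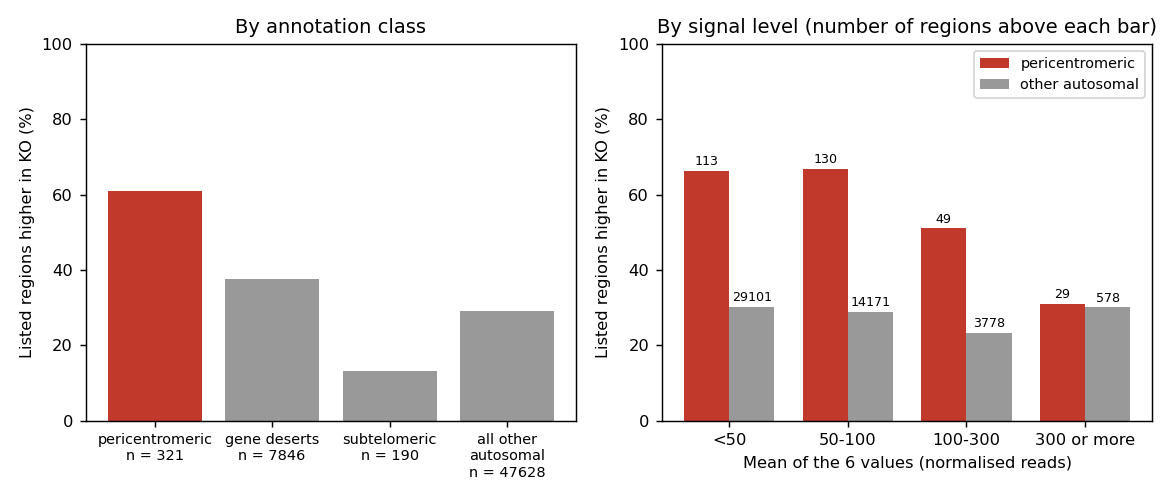
Share of listed H3K9me3 regions that were higher in KO in the authors' table, by annotation class (left) and by the mean of the 6 values in normalised reads (right), with the number of regions given for each bar. Pericentromeric regions stand at 61.1% and subtelomeric ones at 13.2%. Pericentromeric and other autosomal regions are close at 300 normalised reads or more, at 31.0% and 30.1%, and further apart at the lower levels. These are shares before median-ratio scaling, after which 88.5% of pericentromeric ratios lay above 0, and at 300 or more 26 of 29 did against 320 of 578 other autosomal ones.

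The 3 KO and 3 WT values did not overlap at 131 of the pericentromeric regions in the higher direction (40.8%, against 20.2% of all listed regions) and at 67 in the lower direction (20.9%, against 54.2%). They overlapped at the remaining 123. The p-values in the table match a G-test of group sums, in which the 3 values of a genotype count as 1. A limma fit of the 6 log2 values, with Benjamini-Hochberg adjustment over all 50654 regions, takes their spread into account and passed 5 pericentromeric regions as higher (1.56%, against 1.24% of all listed regions) and 4 as lower (1.25%, against 14.9%). The counts at an unadjusted p of 0.05 were 59 and 42 (11.5% and 48.5% of all listed regions). A weighted fit, limma-voom on whole reads recovered from the normalised values, passed 80 as higher (24.9%, against 14.1%) and 53 as lower (16.5%, against 58.0%), and these included all 9 of the limma calls.

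These directions depend on how the libraries are scaled. Scaling each library to the median ratio over all listed regions raised the log2 ratios by a median of 0.79 over all listed regions and 0.88 over the pericentromeric ones. Of the 125 regions listed as lower, 88 then had a ratio above 0 and 37 stayed below, so that 284 of 321 (88.5%) were above 0, against 41.4% of all listed regions. Limma passed 182 as higher (56.7%, against 27.7%) and 0 as lower (0 also at an unadjusted p of 0.05, while 5.97% of all listed regions passed as lower). The median log2 ratio was 1.45, against -0.17 over all listed regions. Under either scaling the pericentromeric median was the higher of the 2, whereas most of the regions listed as lower crossed 0. The scaling applies the same factors to every region and raised both medians by similar amounts, so their kept order is no separate support. The scaling factors came from the listed regions alone, of which the authors called 71.1% lower in KO. Median-ratio scaling treats the typical listed region as unchanged, so it takes any broad loss over these regions out of the ratios. Which scaling is nearer to the true levels was not tested.

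The 5 regions past the limma threshold in the higher direction lay on chromosomes 5, 7, 12 and 13. They were picked on these same values, so the gap between their KO and WT values is no further support. On chromosome 12 the region from 3097001 to 3098500 (region 12, counted from the centromere side) had KO values of 91.7, 41.9 and 68.1 and WT values of 10.6, 26.3 and 18.9 normalised reads. The groups did not overlap, and its 1.86 was the highest log2 ratio that the authors' deposited table gives for any of the 321. The limma log2 change was 1.82 (SE 0.46, adjusted p = 0.0471).

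On chromosome 5 the region from 3120601 to 3122500 (region 13) had KO values of 71.3, 69.3 and 85.7 and WT values of 10.6, 27.9 and 42.8. Every KO value exceeded every WT value, and the WT values spread the more (27.1 ± 16.1, SD, n = 3), at an adjusted p of 0.0499 by limma. A second region of this chromosome, from 3016501 to 3018400 (region 4), had 102, 88.1 and 93.3 in KO and 40.8, 54.1 and 50.8 in WT. Here the values were tight in both groups, at 94.4 ± 6.98 for KO and 48.5 ± 6.95 for WT (SD, n = 3), with 0.0492 as the limma adjusted p. On chromosome 13 the region from 3190401 to 3191800 (region 18) had 61.1, 57.1 and 58.0 in KO against 14.2, 23.0 and 29.7 in WT (limma adjusted p = 0.0475). On chromosome 7 the region from 3026801 to 3029500 (region 4) had 191, 116 and 127 in KO against 76.2, 66.4 and 54.4 in WT (limma adjusted p = 0.0479). The first KO value was the highest there, and the lowest KO value was still above the highest WT value.

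The 4 lower regions past the threshold lay on chromosomes 6, 12, 13 and 19. On chromosome 12 the region from 3059201 to 3062100 (region 10) had KO values of 68.8, 78.0 and 58.8 and WT values of 163, 125 and 145 normalised reads. KO was at 68.6 ± 9.61 and WT at 144 ± 19.2 (SD, n = 3), a limma log2 change of -1.06 (SE 0.26, adjusted p = 0.0471). The higher region of chromosome 12 described above was 2 places further along the list. On chromosome 19 the region from 3035601 to 3038500 (region 3) had 58.6, 71.5 and 79.0 in KO against 144, 150 and 125 in WT (limma adjusted p = 0.0474). On chromosome 6 the region from 3188801 to 3191300 (region 16), inside the long non-coding RNA LOC115490388, had 30.6, 62.4 and 57.2 in KO against 97.5, 132 and 107 in WT (limma adjusted p = 0.0488). On chromosome 13 the region from 3336901 to 3339900 (region 26) had 50.95, 40.6 and 100.9 in KO against 126, 182 and 160 in WT (limma adjusted p = 0.048). The KO and WT values were apart at all 4 regions, which were picked on these same values. All 4 ratios stayed below 0 under median-ratio scaling, at log2 values from -0.53 to -0.15. Under that scaling limma passed 0 pericentromeric regions as lower, also at an unadjusted p of 0.05.

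**Figure D2:**
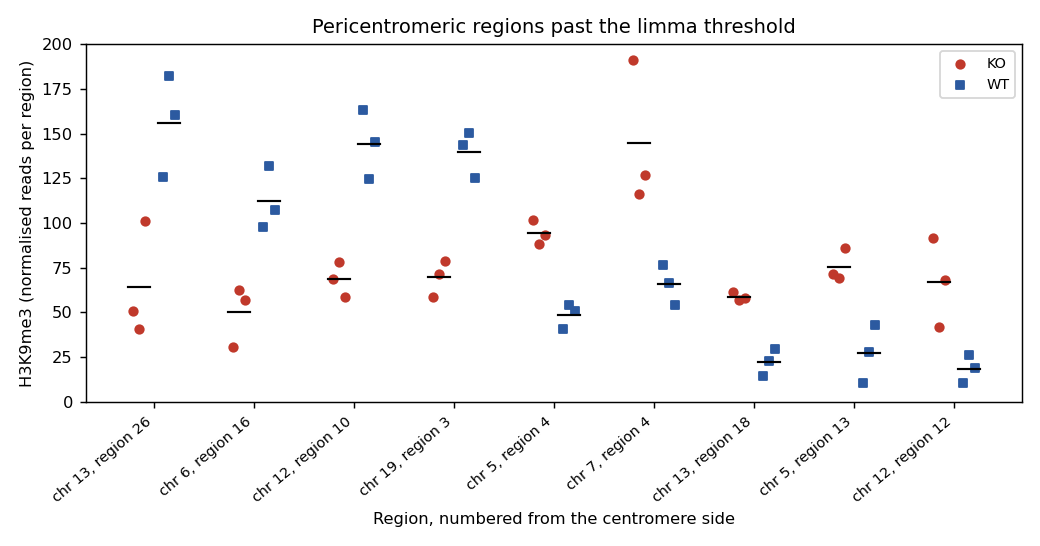
H3K9me3 in normalised reads per region (linear axis) at the 9 pericentromeric regions past the limma threshold, with 3 KO (circles) and 3 WT (squares) values each and lines at the means. Regions are numbered from the centromere side of each chromosome. The 4 regions on the left are lower and the 5 on the right higher in KO, with no overlap between the groups. All 9 were picked on these same values.

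The limma counts moved with single values, over all listed regions as well as here. Leaving out any single value other than the third listed KO value gave 0 higher and 0 lower pericentromeric regions by limma (30 to 51 and 12 to 33 at an unadjusted p of 0.05), with at most 0.0197% of all listed regions called in either direction. Leaving out that value gave 42 higher and 46 lower, the 9 calls above among them, beside 5.89% and 61.1% of all listed regions.

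Direction in the authors' table varied between and along chromosomes. Chromosomes 7, 8 and 15 had 10 of 12, 13 of 14 and 18 of 22 regions listed as higher, and chromosome 16, which had the most regions (70), had 51. Chromosomes 1 and 17 had 1 of 6 each, and chromosomes 3, 6 and 12 were near balance (23 of 42, 16 of 30 and 11 of 22). After median-ratio scaling most counts above 0 rose, to 5 of 6 regions on chromosome 17, 40 of 42 on chromosome 3, 26 of 30 on chromosome 6 and 21 of 22 on chromosome 12. Chromosome 1 stayed at 1 of 6. The median scaled log2 ratios still differed, at -0.11 and 0.04 on chromosomes 1 and 17. They were 1.44, 1.37 and 1.11 on chromosomes 3, 6 and 12, and 1.62, 1.66 and 1.54 on chromosomes 7, 8 and 15. Of 304 neighbouring pairs, 214 were listed in the same direction and 90 in opposite directions. Among these pairs 6 overlapped and 3 abutted, and all of those ran in opposite directions. Touching regions of the same direction were thus not listed apart here, so the counts depend in part on how regions were drawn. The same count was not made over all listed regions.

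**Figure D3:**
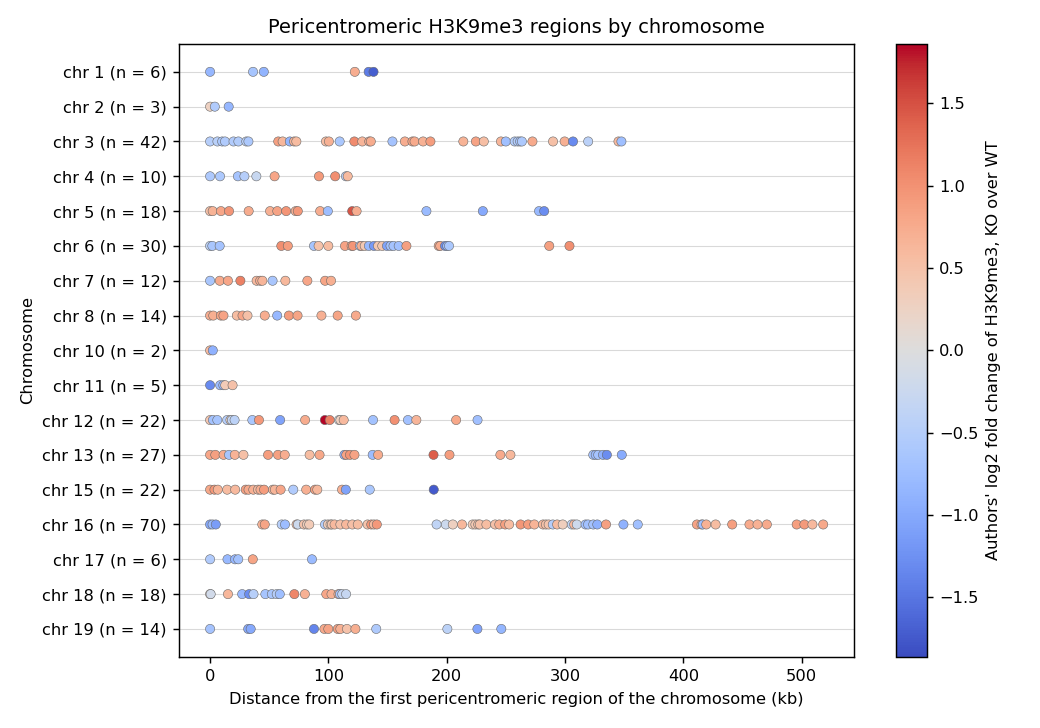
The 321 pericentromeric regions on 17 autosomes, placed by distance in kb from the first such region of each chromosome and coloured by the authors' log2 fold change (red, higher in KO, and blue, lower). Chromosomes 7, 8 and 15 are mostly red, while chromosome 1 is mostly blue. After median-ratio scaling, not drawn here, 12 of 12, 13 of 14, 20 of 22 and 1 of 6 of these ratios lay above 0.

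The higher share was not limited to rows with the pericentromere annotation. The other 271 autosomal regions that started at or below position 3600000 were listed as higher in 140 cases and lower in 131 (51.7% higher). Their share was 35.3% (6 of 17) for starts up to 3100000 and 80.0% (64 of 80) between 3100000 and 3200000. It was 68.9% (31 of 45) between 3200000 and 3300000 and 30.2% (39 of 129) between 3300000 and 3600000. Further along it was 32.7% between 3600000 and 4000000, 23.5% between 4000000 and 5000000 and 30.1% between 5000000 and 10000000. Pericentromeric regions had 57.1% higher up to 3100000, 70.5% up to 3200000, 54.3% up to 3300000 and 56.8% beyond. Only 44 regions stood behind the last value, and no test was made of these shares. After median-ratio scaling 17 of 17, 79 of 80, 37 of 45 and 59 of 129 of the other autosomal regions up to 3600000 had ratios above 0. Of the pericentromeric ones 110 of 126, 96 of 105, 39 of 46 and 39 of 44 did, in the same order of intervals.

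In the authors' scaling fewer of the strong regions were listed as higher. Among pericentromeric regions with a mean of the 6 values under 50 normalised reads, 75 of 113 were listed as higher, and from 50 to 100 it was 87 of 130. From 100 to 300 it was 25 of 49, and at 300 or more 9 of 29. After median-ratio scaling the counts of ratios above 0 did not show this order, at 95 of 113, 118 of 130, 45 of 49 and 26 of 29. The median scaled log2 ratios still fell with the level, at 1.57, 1.49, 1.06 and 0.56. Summed over the 292 regions below 300, the KO values were 21179, 21226 and 21564 normalised reads and the WT values 17576, 21394 and 19965. One WT value exceeded 2 of the KO values, so the summed levels overlapped although most of these regions were listed as higher. None of the 29 regions at 300 or more passed limma (2 lower and 3 higher at an unadjusted p of 0.05, and 2 lower and 4 higher by limma-voom). Of the 578 other autosomal regions at this level, limma passed 213 as lower and 9 as higher.

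A single region held most of the pericentromeric reads. It lay on chromosome 12 from 3108901 to 3111000 (region 14) and took 81.0% to 98.4% of the normalised reads of all 321 regions, and 3.72% to 10.6% of those of all listed regions. Its KO values were 2.96 M, 0.754 M and 0.426 M normalised reads (M, mega) and its WT values 2.89 M, 0.621 M and 0.871 M. The first listed value was the highest by far in both genotypes, and the groups overlapped (1.38 M ± 1.38 in KO against 1.46 M ± 1.25 for WT, SD, n = 3, with 0.876 as the limma adjusted p). The authors' table nonetheless lists it at an adjusted p of 0 with a log2 fold change of -0.08. Levels of this order were also listed at the start of chromosome 9 (2999101 to 3039600), which the table annotates as other intergenic, with means of 1470200 normalised reads in KO and 1608300 in WT. They were not limited to chromosome starts. From 98661301 on chromosome 2 the means were 9337000 in KO and 10365000 in WT, and from 19414801 on chromosome 14 they were 1456800 and 1636200. There too the first listed value was the highest in both genotypes. No label says how reads that match several copies were assigned, and values at near-identical repeats are uncertain for that reason.

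Elsewhere among the strong regions the first listed value was the lowest, again in both genotypes. The second strongest region, on chromosome 10 from 3108501 to 3118100 (region 2, over the pseudogene Gm3318 at its far end), had KO values of 5953, 34717 and 32647 and WT values of 7670, 77113 and 53029 normalised reads. The first value of each genotype was below the other values of both, and the log2 ratio of -0.91 in the authors' deposited table did not come with a limma call (means of 24439 and 45938, adjusted p = 0.459). On chromosome 17 from 3005201 to 3019300 (region 1) the KO values were 545, 1966 and 1497 and the WT values 468, 3251 and 2168. The longest region, on chromosome 4 from 3057701 to 3072600 (region 2), had 1218, 3221 and 2449 in KO and 1370, 5128 and 3836 in WT. Chromosome 3 from 3012101 to 3017500 (region 4) and chromosome 16 from 3230901 to 3238300 (region 26) showed the same order.

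The first listed value was below 0.5 times the lower of the other values in both genotypes at 13 pericentromeric regions (4.05%) and at 0.325% of other autosomal regions. Among regions with a mean of 300 or more it was 11 of 29 (37.9%) and 3.63%. They lay on chromosomes 3, 4, 10, 16, 17 and 18, and 12 of the 13 were listed as lower in KO. It was above 1.5 times the higher of the other values in both genotypes at 4 pericentromeric regions (1.25%) and at 0.275% of other autosomal regions. One was on chromosome 2 from 3049301 to 3051600 (region 1), with 1297, 554 and 727 in KO and 1237, 413 and 486 in WT. Regions chosen in this way have a wide spread within each genotype, so no limma result is read from them. At the first KO position 1 read was worth 2.55 normalised reads, against 0.436 to 1.77 at the other positions.

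**Figure D4:**
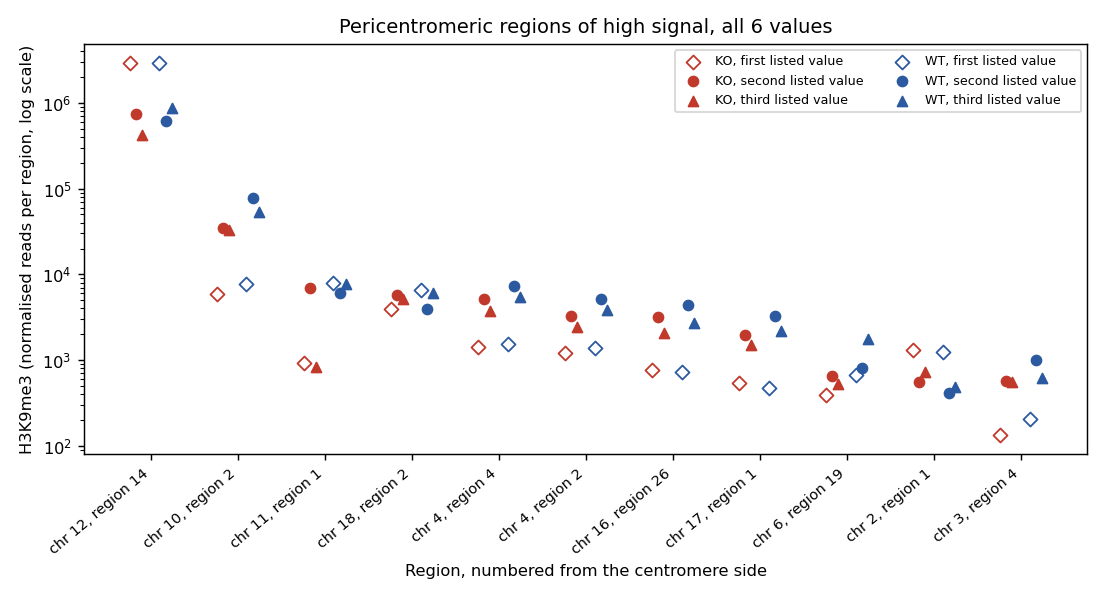
All 6 H3K9me3 values (normalised reads per region, log axis) at the 11 named pericentromeric regions with a WT mean above 300, ordered by that mean. Open diamonds are the first listed values of KO (red) and WT (blue). They lie together above the filled symbols on chromosomes 12 and 2, and together below them on chromosomes 10, 4, 16, 17 and 3.

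Strong regions on chromosomes 11 and 18 did not follow that order, and a region on chromosome 6 did so with smaller gaps. On chromosome 11 from 3099101 to 3103800 (region 1) the KO values were 927, 6953 and 825 and the WT values 7917, 6040 and 7764 normalised reads. The second KO value lay within the WT range and the other two were low (limma adjusted p = 0.0595, with -1.32 as the log2 ratio in the authors' deposited table). On chromosome 6 from 3199801 to 3202500 (region 19) the KO values of 390, 655 and 523 lay below the WT values of 667, 806 and 1781 (limma adjusted p = 0.0724). The first listed value was the lowest in both genotypes there, but not below 0.5 times the others. On chromosome 18 from 3003901 to 3006900 (region 2) KO was at 4973 ± 905 and WT at 5564 ± 1401 (SD, n = 3), and the limma adjusted p was 0.65. Over all 321 regions the summed log2 ratio of KO to WT was -0.11, and without the chromosome 12 region it was -0.47. Its sign turned to 1.01 under median-ratio scaling, and it ranged from -1.20 to 0.73 when single values were left out.

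H3K27ac, an acetylation that marks active promoters and enhancers, was profiled in separate animals as peak lists per library. Peaks overlapped 13 of the 321 pericentromeric H3K9me3 regions (4.05%), against 2.08% of the other autosomal regions. All 13 were among the 29 regions with a mean of 300 or more, and 0 of the 292 weaker regions had a peak. Of the 578 other autosomal regions at this level 193 had one (33.4%), and 993 of all 47628 other autosomal regions did, so weaker regions elsewhere had peaks too. The KO libraries had 8, 18 and 21 peaks on pericentromeric regions and the WT libraries 9, 18 and 21, in the order of replicates 1, 2 and 3 (15.7 ± 6.81 and 16 ± 6.24, SD, n = 3, exact permutation test on both sides, p = 1, smallest possible 0.1). Replicate 1 of both genotypes shares a title number, as do replicates 2 and 3, and within these numbers the counts were 8 against 9, and 18 and 21 in each genotype. As a share of all autosomal peaks the replicate 3 libraries, with the shortest lists, stood highest, at 18.7 and 17.3 per 10000 peaks against 2.87 to 4.93 in the other 4.

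At 6 regions every library had a peak. The strongest lay in the chromosome 12 region that held most H3K9me3 reads, with a fold enrichment by the authors' peak caller of 35.8 to 45.8. It also touched the next region, from 3110101 to 3111100, which overlaps this one, so in each library 1 peak stands behind both. The remaining 4 were on chromosome 2 (region 1, fold 11.5 to 23.7), chromosome 16 from 3113701 to 3116500 and from 3349401 to 3352500 (regions 9 and 50), and chromosome 18 (region 2). The strong regions on chromosomes 10 and 11 had peaks in replicates 2 and 3 of both genotypes and 0 in replicate 1 of either. There were 6 and 7 in KO and 4 and 5 in WT on chromosome 10, and 2 in each of these libraries on chromosome 11. Replicate 1 of each genotype was female with 1 number in its title, and replicates 2 and 3 were male with another, so sex and title number cannot be told apart. The 4 regions with peaks in 1 genotype only, named after their values were seen, were regions 2 and 4 of chromosome 4 and region 28 of chromosome 16 in WT and region 47 of chromosome 16 in KO, each in 1 or 2 libraries.

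**Figure D5:**
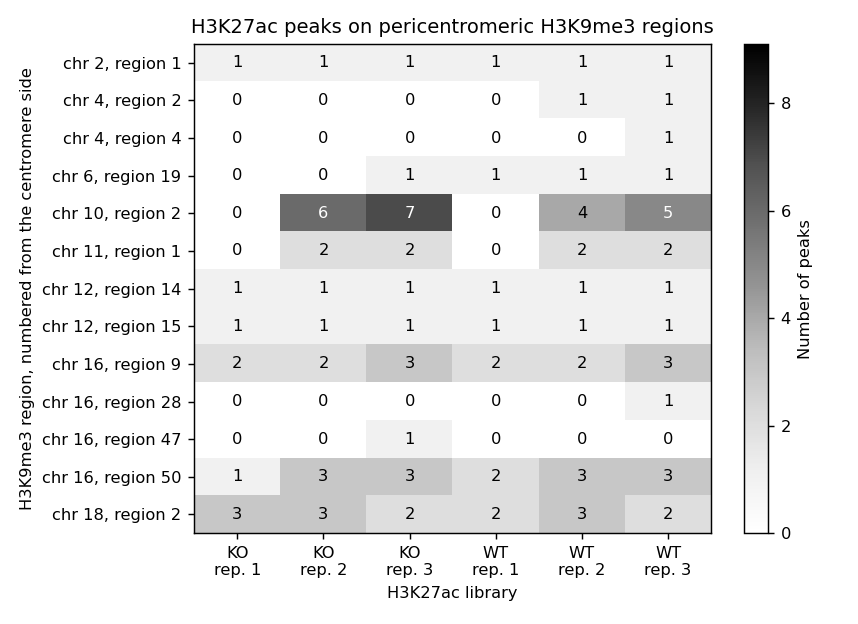
Number of H3K27ac peaks in each of the 6 libraries at the 13 pericentromeric H3K9me3 regions that had any, numbered from the centromere side. Chromosomes 10 and 11 have 0 peaks in replicate 1 of both genotypes and 2 to 7 in the other libraries.

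The identity of the cultures was checked on the same peak lists, within 1 kb of each gene. All 6 progenitor markers had a peak in some library, with Nes, Pax6 and Fabp7 in all 6. Of the ganglionic eminence markers given here, Dlx1 had a peak in 2 libraries, while Dlx2, Dlx5, Gsx2 and Nkx2-1 had none. The 4 cortical excitatory markers had none, Csf1r and Ptprc of 4 microglia and blood markers had one in 3 and 2 libraries, and Pecam1 and Tek of 4 vascular markers in 6 and 3. Aif1, Cx3cr1, Cldn5 and Pdgfrb had none. The part of other cell types in the pericentromeric values was not tested.

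Genes that place, read or remove H3K9 methylation or build pericentromeric heterochromatin were looked up in the same table, under 40 symbols, of which 37 are in the RefSeq table. Of the 40, 35 had no listed region, Suv39h1, Suv39h2, Cbx5 and Setdb1 among them, and 5 had 15 regions, of which 14 were listed as lower and 1 as higher, where 71.1% of all listed regions were lower. Atf7ip alone held 9 of the 15 and Smchd1 held 3. Limma passed 4 as lower, beside 14.9% of all listed regions. At Smchd1, a structural protein of silent chromatin on the X chromosome, a gene-body region (chromosome 17, 71420701 to 71422900) had 7.64, 13.1 and 41.2 normalised reads in KO and 90.4, 119 and 87.7 in WT. All KO values lay below all WT values (limma adjusted p = 0.0471), and a further Smchd1 region (71431201 to 71432600) had 12.5 ± 8.02 in KO against 49.5 ± 3.63 for WT (SD, n = 3), where the limma adjusted p was 0.0492. The other passing regions were in Atf7ip, whose protein stabilises SETDB1. Uhrf1, which links DNA methylation to H3K9 methylation, had the region listed as higher, at a log2 ratio of 0.72 in the authors' deposited table (0.129 by limma, adjusted). Histone marks at these genes do not measure their expression.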

How the data were processed

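H3K9me3 and H3K27ac were profiled by native ChIP-seq from 100000 nuclei per library, per the labels' protocols. The submitters' processing notes name mm10, Bowtie2 2.3.4.3 and MACS2 without roles, and no label states which tool compared the H3K9me3 groups. The authors deposited 1 table of selected H3K9me3 regions of at least 1000 bp, with 3 normalised values per genotype joined in a cell. Its group means are a normalised signal, its enrichment a ratio, its fold changes log2 of KO over WT, and it holds p-values and adjusted p-values, all per the file headers. The authors' H3K27ac peak lists, 1 per library, carry for each peak its score, its fold enrichment and its p and q as -log10, per the file headers. Only the fold and the q value were used, within a list.

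The 50654 regions were fitted together by limma 3.58.1 under R 4.3.3, on log2(value + 1), with a trend of variance on mean, with Benjamini-Hochberg adjustment, and fold changes are on that scale. Nearly all listed regions carry an authors' adjusted p of at most 0.05 from the same libraries, so the limma p-values come after a choice made on these values. Values were whole multiples of a step per listed position (100% of low values within 0.1 reads), which gave the reads for limma-voom. The first positions of both genotypes, with the fewest reads per pericentromeric region, are the least precise. The authors' p-values followed a G-test on summed values over 38105 regions with p above 1e-14 (largest log10 difference 0.00674). The limma step was tested on simulated data. Peaks were joined to regions at an overlap of 1 bp. The result for 1 marker gene is not reported here. Samples were grouped by title and genotype, and replicates are separate animals by the series design. The regions and lists were chosen with earlier results of these data known. Named regions are those with the highest WT mean of each autosome, those above 10000 reads, the 8 lower and 8 higher with the smallest limma p, the 3 longest, up to 8 with H3K27ac peaks and up to 4 silencing genes, of which the text gives a part. Alternatives covered pseudocount, filter, scaling, regions fitted, trend, thresholds, overlap and left-out values.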

Additional observations from a re-analysis of the deposited data

How the results depend on the processing

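The 3 H3K9me3 values of a genotype are not tied to animals, so no replicate block could be fitted to them. For H3K27ac, with the title number as a replicate block, chosen after seeing the data, the difference between genotypes stayed at -0.33 peaks per library (exact permutation within title numbers, p = 1, smallest possible 0.167). The limma counts of lower and higher pericentromeric regions (4 and 5) became 15 and 14 with a pseudocount of 5 (33.3% and 4.45% of all listed regions), 53 and 80 with limma-voom, 0 and 182 after median-ratio scaling and 0 and 0 without the trend, where no listed region passed (26 lower and 48 higher at an unadjusted p of 0.05). The higher count was 3 with a pseudocount of 0.5 and 8 when only autosomal regions were fitted. Leaving out each of the 6 values gave 0 to 46 lower and 0 to 42 higher, and leaving out the first value of both genotypes together, chosen after seeing the data, gave 0 and 0 (15 and 12 at an unadjusted p of 0.05). The 4 lower regions of silencing genes became 10 with a pseudocount of 5, 14 with limma-voom, 0 without the trend (13 at an unadjusted p of 0.05), 0 without the first values (8 at an unadjusted p) and 0 to 14 when each value was left out. The authors' 125 lower and 196 higher regions became 18 and 11 at an absolute log2 fold change of at least 1, and a G-test after median-ratio scaling called 13 lower and 239 higher. Without chromosome 16, also chosen after seeing the data, 106 and 145 remained and the limma counts were 4 and 5.

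The median log2 fold change of 0.54 stayed above 0 in every alternative run, at 1.45 after median-ratio scaling, 0.34 without the first value of both genotypes and 0.41 to 0.53 when each value was left out. The H3K27ac difference of -0.33 peaks per library (KO minus WT) was 0.33 at a -log10 q of at least 5, and -3.83 to 3.50 when each library was left out, with 3.50 without KO replicate 1, 0.67 without WT replicate 2 and 2.17 without WT replicate 3. The cause of these changes was not tested. Depth limits the first listed KO value most, and regions of near-identical repeats cannot be told apart in these values.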
